A study of Solanum lycopersicum with 24 samples.

Results

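Outside a dense cluster on chromosome 11, the circular RNA lists of tomato fruit held 251 of their 434 N1-methyladenosine (m1A) peaks. Every circular RNA (circRNA) peak was taken except those of a short interval of chromosome 11, whose listed peaks ran from 18757779 to 18869388, a choice that used position and no enrichment value. The 251 peaks lay in 35 of the 38 circles that carried a peak, and the remaining 183 peaks formed the cluster. RNA fragments carrying m1A were pulled down with an antibody and sequenced, and the authors deposited lists of enriched regions for mRNA, long noncoding RNA (lncRNA) and circRNA. There were 12 immunoprecipitation libraries in 4 groups of 3 biological replicates, all from fruit, with the tissue labelled only as tomato. Wild-type Ailsa Craig (AC) fruit was taken at mature green (MG), approximately 39 days after flowering, and when red, 6 days after breaker (Br+6). Never-ripe (Nr) fruit, homozygous for an ethylene receptor mutation in the same AC background, was taken at the matching stages. The labels G and O of the Nr libraries were read as the green stage and as the late stage, at which Nr fruit was orange. The 12 paired input libraries were not analysed here.

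A circRNA forms when a downstream splice site is joined back to an upstream one, which closes an exon or a longer stretch of a transcript into a ring without free ends. The methyl group of m1A sits on the Watson-Crick face of adenine and carries a positive charge, and the modification is well known from tRNA and from the large-subunit ribosomal RNA (rRNA). Tomato ripening depends on ethylene, and the Nr receptor mutation makes fruit largely insensitive to it.

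The lists gave each peak a fold enrichment, the authors' ratio, which reached at most 50 in any list. Of the 251 peaks 20 stood at exactly 50. Whether the ratio was capped there is not stated, so values close to 50 show little of how far libraries differed. No list gave back-splice reads, so a peak placed in a circle could come from the circle or from linear RNA of the same locus, and the lists do not separate them. Peaks were trimmed to the circle they were listed under. Of the 251 peaks, 102 began exactly at the first base of the circle, 77 ended exactly at its last base and 37 filled it, so 142 (56.6%) touched at least 1 of its ends. None extended beyond the circle, and none was listed under more than 1 circle of a library. Circle spans ran from 73 to 78365 bases with a median of 3673. The 12 circles with spans over 10000 bases held 175 peaks, while 14 circles spanned at most 1000 bases. Coordinates are 1-based and belong to build SL3.00, named by a scaffold in the lists. No sequence of that build was used here, so none is printed. The lists hold calls and not expression levels, so fruit identity could be checked only from listed peaks. The fruit-specific gene 2A11 had an mRNA peak in 9 of the 12 libraries.

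By circRNA category, 168 peaks (66.9%) in 23 circles were sense overlapping, meaning that the circle lay on the strand of an annotated gene and overlapped it. Another 77 peaks (30.7%) in 8 circles were antisense to their host gene. Exonic circles, built from annotated exons, had 5 peaks in 3 circles, and 1 peak lay in an intergenic circle. rRNA genes were the hosts of 120 peaks (47.8%) in only 6 circles, 63 peaks in 4 large-subunit circles and 57 in 2 small-subunit circles. The 131 peaks with other hosts (52.2%) were spread over 29 circles. Of the rRNA-host peaks 71 were sense and 49 antisense, and of the other-host peaks 97 were sense and 28 antisense.

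**Figure D1:**
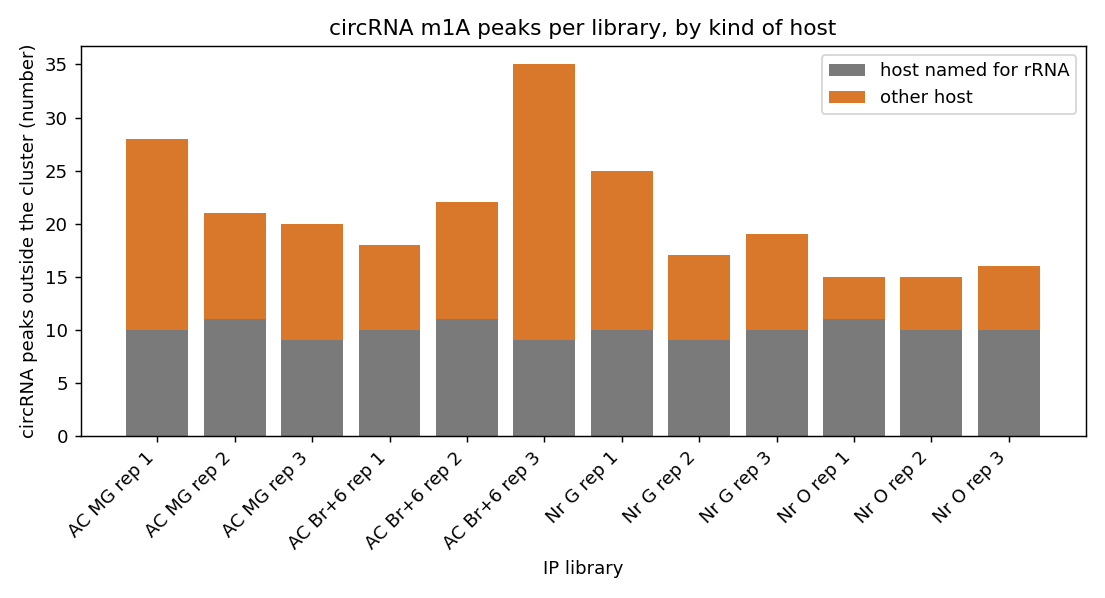
Number of circRNA peaks outside the chromosome 11 cluster in each of the 12 libraries, divided into peaks with rRNA hosts and peaks with other hosts. The rRNA-host part stayed between 9 and 11 peaks, while the other-host part ran from 4 peaks in Nr O replicate 1 to 26 in AC Br+6 replicate 3.

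The rRNA-host peaks formed a nearly fixed set. When overlapping peaks of different libraries were merged, the 251 peaks reduced to 59 positions, 12 with rRNA hosts and 47 with other hosts. Of these positions 12 carried a peak in every library, and 9 of the 12 had rRNA hosts. Together these 12 positions held 156 of the 251 peaks. At the other extreme 29 positions were called in a single library, and 28 of those had other hosts.

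The small-subunit rRNA forms the decoding part of the ribosome. It was the listed host of a pair of overlapping circles on the plus strand of chromosome 6, at 11587647 to 11608356 and at 11588381 to 11609087. These circles spanned 20710 and 20707 bases, and the lists do not say which rRNA, if any, lies at each peak. The strongest position, 11597725 to 11598612, had a fold enrichment of 45.5 to 49.2 over the 12 libraries with a median of 48.4. These values all lie close to the highest ratio of the lists, and their coefficient of variation was 2%. Positions 11587647 to 11588983 (9.22 to 14.7, median 10.7) and 11591504 to 11592581 (4.79 to 10.6, median 9.15) were also called in all 12 libraries, at lower enrichment. A weaker position, 11590761 to 11591274, was called in 8 libraries at 2.76 to 5.89, of which 3 were the Nr O libraries and 1 was an AC MG library. The right-hand position, 11606400 to 11609087, was called in all 12 libraries at 4.10 to 16.6. It was listed under the first circle in 7 libraries and under the second in 6, with both in AC Br+6 replicate 2.

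The large-subunit rRNA forms the peptidyl transferase part of the ribosome, and 4 circles had it as host. The circle at 11617570 to 11650220 of chromosome 6, antisense to its rRNA gene, carried a peak at each end in every library. The left peak, at 11617570 to 11618099, ranged from 47.9 to 49.5, again close to the highest ratio, with a coefficient of variation of 0.809%. The right peak, at 11649610 to 11650220, had a median of 49.7 and a lowest value of 42.4 in AC Br+6 replicate 3.

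A second antisense circle, at 22964 to 61447 of the unplaced scaffold SL3.00SC0000032, had 25 peaks. Its position 28145 to 29800 was enriched 39.6 to 42.1 times in all 12 libraries. Its position 22964 to 23766 ranged from 8.25 to 31.1, in Nr O replicates 2 and 3, the widest spread among the recurrent rRNA positions (44.3%). Both extremes were replicates of 1 group, so the spread within Nr O covered that of the other groups. Another peak of this scaffold, at 44582 to 44781, was called only in AC MG replicate 1 at 1.94. The short circle at 34101485 to 34101631 of chromosome 5 was filled by a peak in all 12 libraries at 20.4 to 29.1. The shortest circle of all, at 12344536 to 12344608 of chromosome 6, was called in AC MG replicate 2 (49.0) and Nr O replicate 1 (49.3). rRNA gene copies are nearly identical, so the assignment of these peaks to a copy is uncertain. In the long circles the host name also does not place a peak within that rRNA gene.

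**Figure D2:**
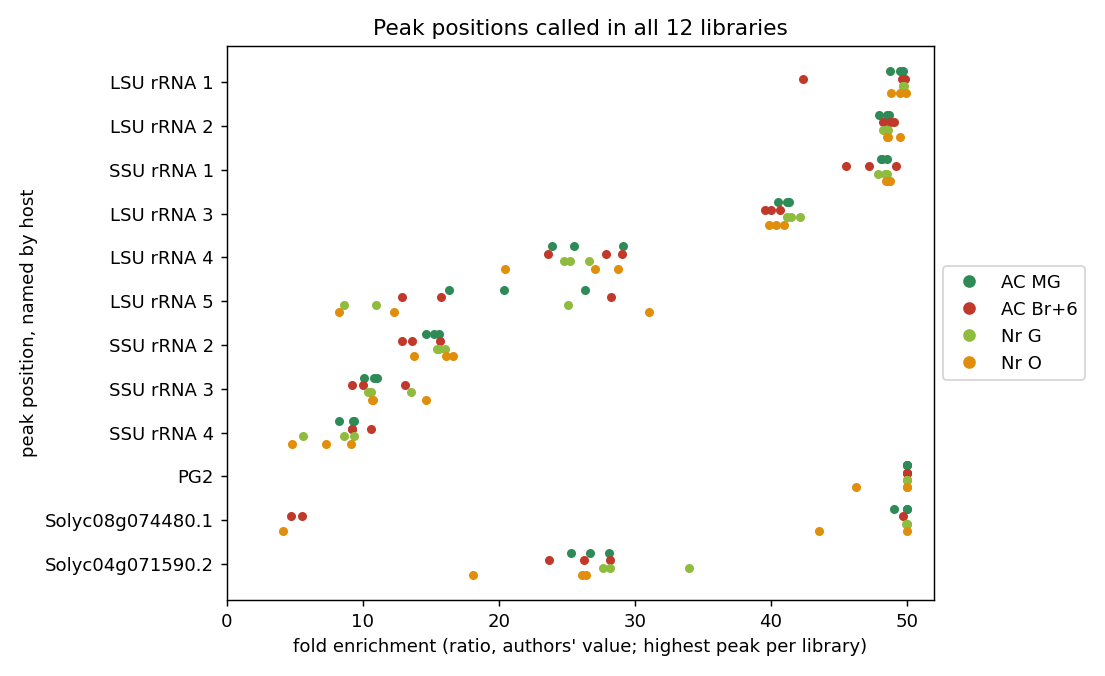
Fold enrichment (the authors' ratio, horizontal axis) of the highest peak per library at each of the 12 merged positions called in all 12 libraries (vertical axis). There is 1 point for each library, with colours for the 4 groups. Coefficients of variation ran from 0.809% to 44.3% over the 9 rRNA positions, the lowest at a position near 50, and the position in the Solyc08g074480 circle ran from 4.10 to 50.

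Only 3 circles with other hosts were called in all 12 libraries. The first, on chromosome 10 from 61691834 to 61722625, had as its host PG2, polygalacturonase-2, an enzyme that cuts the pectin of softening fruit walls. Its recurrent peak, at 61722421 to 61722625, did not lie at PG2 itself but at the other end of the circle, where the mRNA lists named Solyc10g080260. Its fold enrichment was 50 in 11 libraries and 46.2 in Nr O replicate 3. PG2 had mRNA peaks of its own in 3 libraries, and the circle held 2 further peaks, both at PG2 in AC Br+6 replicate 3 (6.74 and 8.12).

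The second, on chromosome 4 from 58638536 to 58672154, was listed under the host Solyc04g071590, which had no mRNA peak in any library. Its 25 peaks lay elsewhere in the span, 23 of them at Solyc04g071610, a gene the lists describe as a fruit-ripening protein. In 11 libraries that gene carried a pair of peaks, a left one beginning between 58664282 and 58664408 and a right one beginning between 58665143 and 58665168. In AC MG replicate 3 a single peak of 1560 bases covered both. The higher peak of each library was 26.7, 28.1 and 25.3 in AC MG and 28.2, 26.3 and 23.7 in AC Br+6. In Nr G it was 27.7, 34.0 and 28.2, and in Nr O 18.1, 26.1 and 26.4. The groups overlapped, and the lowest library was Nr O replicate 1. The other 2 peaks lay at Solyc04g071615, in Nr G replicate 1 (17.3) and Nr O replicate 3 (2.51).

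The third was a circle of 223 bases, at 58702926 to 58703148 of chromosome 8, antisense to Solyc08g074480, described as a 14 kDa proline-rich protein DC2.15. Its fold enrichment was 50, 50 and 49.1 in AC MG and 49.9, 50 and 50 in Nr G. In AC Br+6 it was 4.76, 5.56 and 49.7, and in Nr O 4.10, 50 and 43.5. All 6 green-stage values lay between 49.1 and 50, while 3 of the 6 late values were under 6 and the groups overlapped.

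The 26 remaining circles with other hosts were called in 1 to 6 libraries, and their peaks made up most of the variation between libraries. The 3 recurrent circles gave 3 to 6 peaks in every library. The remaining circles gave 14, 6 and 8 peaks in the AC MG replicates, 4, 7 and 20 in those of AC Br+6, and 10, 4 and 5 in those of Nr G. In Nr O they gave 0, 1 and 1, fewer than in any library of the other groups. Other-host circles with at least 1 peak numbered 19 for AC MG and 19 for AC Br+6, and in the mutant 18 at the green stage and 5 late. Over both host types, 24 of the 35 circles had no Nr O peak. The circles described next go beyond those the naming rule picked, so that all 35 are accounted for, and the additional ones were chosen after their values were seen.

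**Figure D3:**
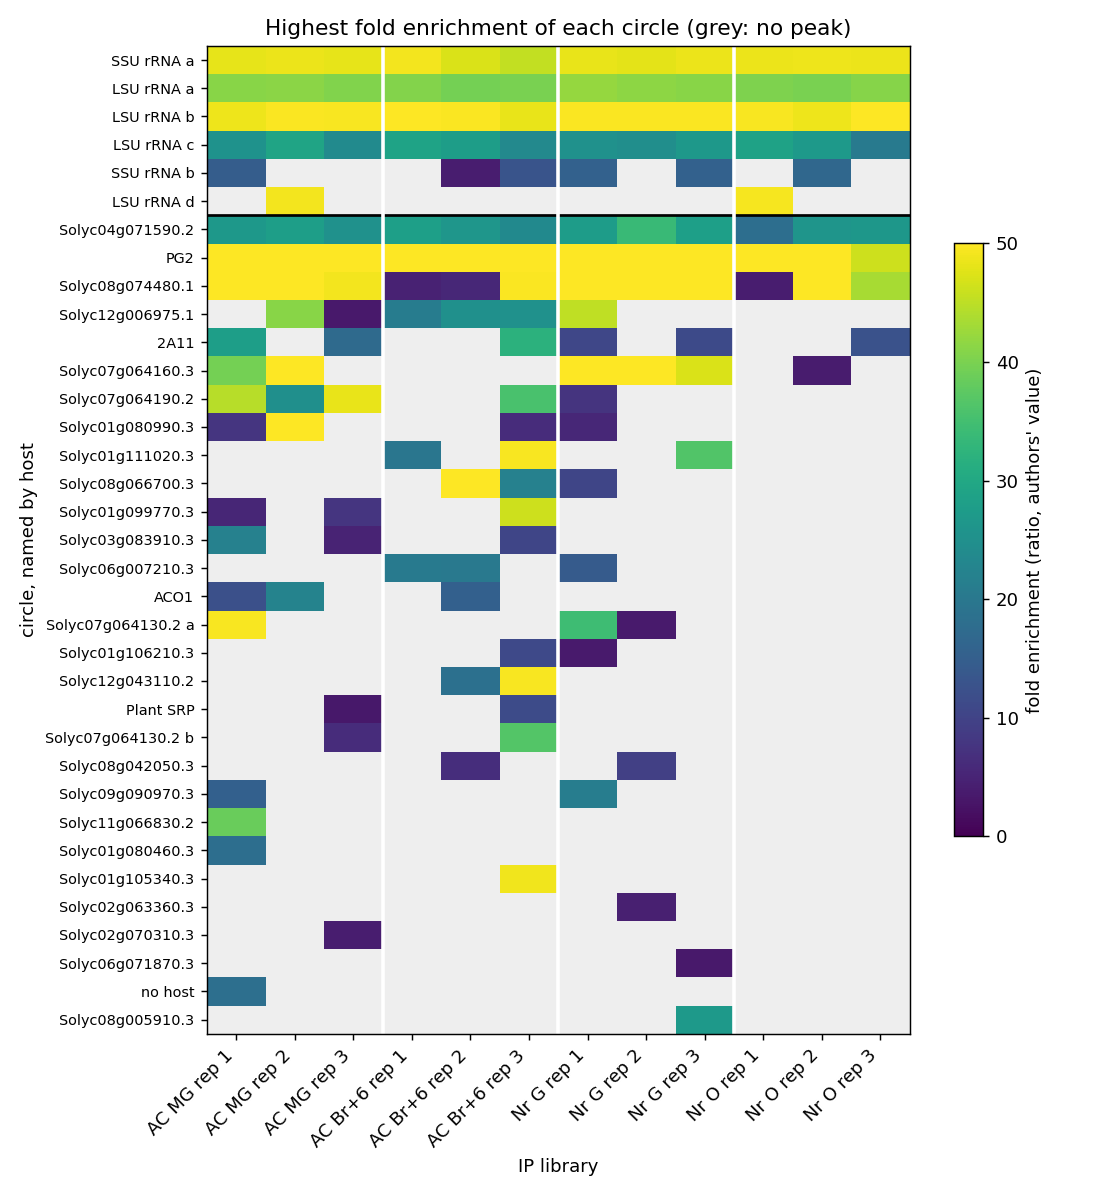
Highest fold enrichment of each of the 35 circles (rows, ordered by host type and number of libraries) in each of the 12 libraries (columns, in 4 groups of 3), with empty cells where no peak was called. The 7 circles called in all 12 libraries form filled rows, and the Nr O columns are nearly empty below them.

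Among genes tied to ripening, ACO1 encodes an oxidase that makes ethylene from 1-aminocyclopropane-1-carboxylate. Its circle, at 59958636 to 59974996 of chromosome 7, was called in AC MG at 12.2 and 22.4, in AC Br+6 at 15.4 and in no Nr library. The AC MG peaks lay at 59959245 to 59959615 and the AC Br+6 peak at a separate position, 59958662 to 59958938. The circle in the fruit-specific gene 2A11, at 59495218 to 59495376 of chromosome 7, was filled by a peak in 5 libraries and called at its end in AC MG replicate 1. Its fold enrichment was 28.0 and 17.4 in 2 AC MG libraries, 10.7 and 11.2 in 2 Nr G libraries, 32.2 in 1 AC Br+6 library and 12.6 in 1 Nr O library. Among the hosts that the lists name or describe, none was an ethylene receptor or a ripening regulator.

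In metabolism, thiamine thiazole synthase makes the thiazole part of vitamin B1. The circle antisense to its gene Solyc07g064160, at 66551392 to 66551601 of chromosome 7, was called in 2 AC MG libraries (39.6 and 49.9) and in all 3 Nr G libraries (50, 50 and 47.2). Of the late libraries only 1, in Nr O, had it, at 3.73. A circle antisense to pyruvate, phosphate dikinase (Solyc01g080460), which makes phosphoenolpyruvate from pyruvate, was called once, at 18.1.

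Several hosts act in protein turnover, folding or translation. Polyubiquitin (Solyc07g064130), a source of the ubiquitin that marks proteins for degradation, had a pair of overlapping circles of 684 bases each. The circle at 66537363 to 66538046 of chromosome 7 was called in 1 AC MG library (49.5) and in 2 Nr G libraries (34.5 and 3.53). The circle at 66537286 to 66537969 was called in 1 AC MG library (6.27) and 1 AC Br+6 library (36.6). Polyubiquitin genes are repetitive, so reads may be shared between repeats and copies. A circle in the translationally controlled tumor protein gene Solyc01g099770 was called in 2 AC MG libraries (5.42 and 7.63) and 1 AC Br+6 library (46.1). The mitochondrial heat shock 70 kDa protein gene Solyc01g106210, a chaperone gene, headed a circle of 58979 bases with 5 peaks. Only 1 of them, in Nr G replicate 1 (3.56), lay at that gene in the mRNA list. The other 4, all in AC Br+6 replicate 3 at 3.43 to 10.97, lay at Solyc01g106220, Solyc01g106253 and Solyc01g106260. The ribosomal protein genes L32-1 and L17-1, which encode parts of the large subunit, had 1 circRNA peak each, at 3.94 in AC MG replicate 3 and 3.41 in Nr G replicate 3. Plant_SRP, the RNA of the signal recognition particle that directs new proteins to membranes, had an antisense circle with a peak in AC MG replicate 3 (3.20) and AC Br+6 replicate 3 (11.4).

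Hosts with roles in RNA were the splicing factor U2af small subunit B (Solyc11g066830), which helps to recognise the end of an intron, with 1 antisense peak at 38.6. The exosome subunit RRP46 homolog (Solyc08g066700), part of an RNA-degrading complex, had 4 peaks, at 50 in AC Br+6 replicate 2, 22.1 and 2.97 in AC Br+6 replicate 3 and 10.5 in Nr G replicate 1. The chloroplastic RNA helicase 3 gene (Solyc08g042050), a DEAD-box enzyme that remodels RNA, had an exonic circle called in AC Br+6 replicate 2 (6.62) and Nr G replicate 2 (9.42). The other exonic circles had hosts without a description. Solyc09g090970 was called in AC MG replicate 1 (15.4) and Nr G replicate 1 (21.2), where the piece left inside the circle was only 4 bases long. Solyc02g063360 was called in Nr G replicate 2 (4.32).

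Among hosts with no description, the circle antisense to Solyc12g006975 was called in 2 AC MG libraries (41.2 and 3.45), in all 3 AC Br+6 libraries (21.1, 25.2 and 25.3) and in 1 Nr G library (45.3). Solyc07g064190 held 9 peaks in 5 libraries, and its highest value was 44.6, 24.9 and 48.3 in AC MG, 35.6 in AC Br+6 replicate 3 and 7.50 in Nr G replicate 1. Solyc01g080990, the longest span, held 5 peaks in 4 libraries, at 3.32 to 50, all at the genes Solyc01g081010 and Solyc01g081050 of the mRNA lists and none at the host. Solyc03g083910 was called in 2 AC MG libraries (22.1 and 5.04) and in 1 AC Br+6 library (10.4). Solyc06g007210 was called in 2 AC Br+6 libraries (20.6 and 20.1) and in 1 Nr G library (14.4). Solyc12g043110 held 3 peaks in 2 AC Br+6 libraries, at 18.5, 14.8 and 49.5. The circle of Solyc01g105340 was called once, at 48.9, as was that of Solyc08g005910, described as a phytochrome-interacting ankyrin-repeat protein 2, at 26.8. The 1 intergenic circle had a peak at 211854 to 211964 of chromosome 7 in AC MG replicate 1, at 18.3.

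Of the 8 circles called in a single library, 3 came from AC MG replicate 1, 2 from Nr G replicate 3, and 1 each from AC MG replicate 3, AC Br+6 replicate 3 and Nr G replicate 2. The share of circles called in all 12 libraries, 7 of 35 (20%), stood beside 26.3% of all 38 circles and 3.14% of all 1945 mRNA genes with a peak. These 7 circles held 163 of the 251 peaks (64.9%).

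Most peaks with other hosts were the same enriched region that the mRNA list of the library already held. Only 18 of the 251 peaks (7.17%) had identical coordinates in both lists. The lists cut a region to each annotation it falls in, however, and the peak identifier with its score and fold enrichment carries over. By identifier, 135 peaks (53.8%) were in the mRNA list of their library, 117 of them with other coordinates. Of the peaks with other hosts 123 of 131 (93.9%) were in the mRNA list, against 12 of 120 (10%) with rRNA hosts. All 12 of the latter were the left end of the antisense circle on chromosome 6 (11617570 to 11618099), which the mRNA lists gave to Solyc06g024245. Among the 123, the host itself was the mRNA gene of 77, and other genes within the circle span carried the rest. Antisense circles were no exception, as 26 of their 28 other-host peaks also stood in the mRNA list.

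Over the 12 libraries, the share in the mRNA list by identifier was 94.4% ± 7.53 (SD, n = 12) for other hosts and 10.1% ± 0.748 (SD, n = 12) for rRNA hosts. It was higher for other hosts in 12 of 12 libraries (two-sided exact sign-flip permutation test over 4096 arrangements, p = 0.000488, the smallest it can give, adjusted p = 0.000732 over 3 such comparisons). In the chromosome 11 cluster the share was 39.8% ± 3.34 (SD, n = 12). It was lower there than for other hosts in 12 of 12 libraries (exact permutation p = 0.000488, adjusted p = 0.000732). All peaks outside the cluster together had a share of 51.1% ± 11.4 (SD, n = 12), above that of the cluster in 9 of 12 libraries (exact permutation p = 0.00684, adjusted p = 0.00684). These 3 comparisons were added after the values were seen, and the libraries share most of the rRNA and cluster positions, so they show repeated calls of the same loci. The mRNA lists name mRNA genes, so a low share for rRNA hosts was largely set by how the lists are built. The p-value against rRNA hosts shows nothing beyond that. Other hosts were mostly genes that can enter the mRNA lists, so their high share was also largely set in this way. The p-value of other hosts against the cluster therefore says little about the cluster. Exactly 1 rRNA-host peak was shared in every library, so the spread of the rRNA-host share reflects only its total of 9 to 11 peaks. The share outside the cluster mixes both host types, so it mostly follows the number of other-host peaks, 4 to 26 per library. Its p-value against the cluster therefore does not measure a difference between loci outside and inside the cluster. By library the share outside the cluster was lowest in Nr O replicate 1, at 33.3% (95% Clopper-Pearson interval 11.8 to 61.6). It was highest in AC Br+6 replicate 3, at 71.4% (53.7 to 85.4). The interval covers counting error only.

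**Figure D4:**
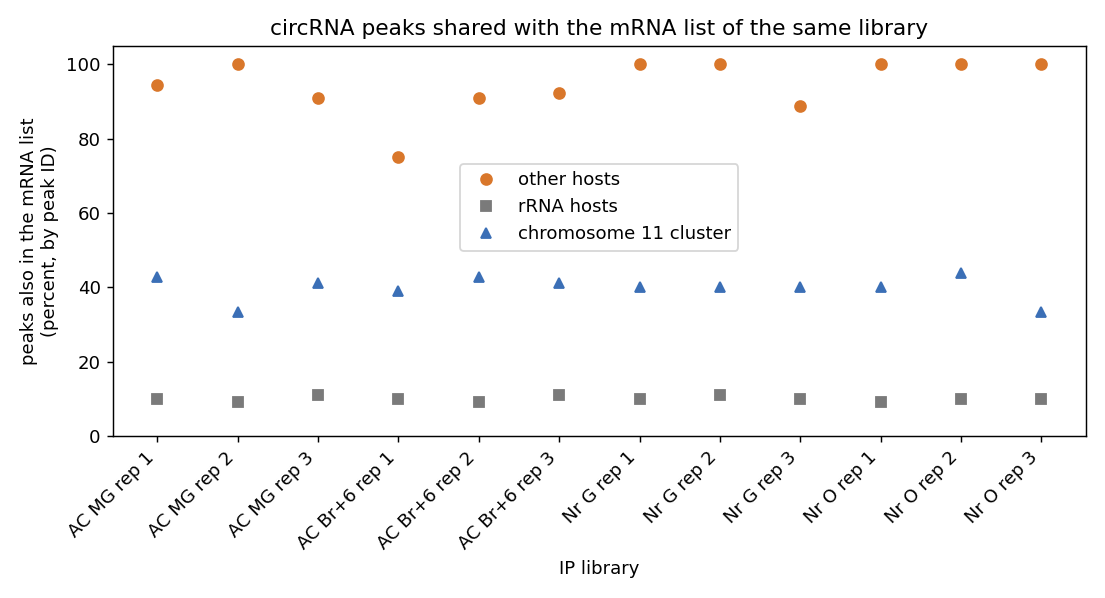
Percent of circRNA peaks that also stood in the mRNA list of the same library, by peak identifier, for rRNA hosts, other hosts and the chromosome 11 cluster, with 1 point for each of the 12 libraries. Other hosts lay between 75.0% and 100%, above both other sets in every library.

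The 8 other-host peaks absent from the mRNA lists were few enough to name. In the Solyc01g111020 circle 4 peaks stood in the lncRNA list as Solyc01g111080, at 18.6 and 19.6 in AC Br+6 replicate 1, 49.5 in AC Br+6 replicate 3 and 36.3 in Nr G replicate 3. Both Plant_SRP peaks, the intergenic peak and a peak of the RRP46 circle at 55587768 to 55588000 of chromosome 8 (50 in AC Br+6 replicate 2) were in neither other list. For 21 of the 29 other-host circles, every library with a circle peak also had an mRNA peak of the host gene, and for 7 circles the host had mRNA peaks in more libraries than the circle did. Solyc07g064190 was such a host, with an mRNA peak in 10 libraries and a circle peak in 5. Solyc03g083910 was another, with 5 and 3.

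Peak numbers outside the cluster were 28, 21 and 20 for the AC MG replicates, a mean of 23 ± 4.36 (SD, n = 3), and 18, 22 and 35 for AC Br+6, a mean of 25 ± 8.89 (SD, n = 3). They were 25, 17 and 19 for Nr G, a mean of 20.3 ± 4.16 (SD, n = 3), and 15, 15 and 16 for Nr O, a mean of 15.3 ± 0.577 (SD, n = 3). Every Nr O library had fewer peaks than any library of the other groups. The lists hold calls and no read totals, so fewer peaks cannot be told apart from lower sequencing depth. In bulk fruit RNA, fewer cells of a type and less RNA per cell cannot be told apart either. The mRNA lists were also shortest in Nr O, with 108, 151 and 129 peaks against 188 to 854 in the other groups, and their part in the result was not tested. Other-host peaks per 100 mRNA peaks were 3.58 ± 0.965 (SD, n = 3) for AC MG and 3.99 ± 0.841 (SD, n = 3) for AC Br+6. The Nr means were 3.30 ± 0.748 (SD, n = 3) for green fruit and 3.89 ± 0.689 (SD, n = 3) for late fruit. Scaled in this way, the Nr O mean lay within the range of the other group means. Of the Nr O other-host peaks, however, 4, 4 and 5 lay in the 3 recurrent circles and 0, 1 and 1 in the remaining ones. The scaled Nr O values thus mostly divide a nearly constant number by the shortest mRNA lists. They do not show that the remaining circles kept pace with the mRNA lists.

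The 12 libraries were compared in 21 two-sided exact permutation tests, of peak number, percent of rRNA hosts and percent in the mRNA list by coordinates, and none passed after Benjamini-Hochberg adjustment. With 3 libraries against 3 the smallest p is 0.1, so these tests could not pass 0.05. The tests over all 12 libraries have a smallest p of 0.005. After adjustment over 21 tests, 1 of them at that floor could not pass alone, and several at the floor together would have been needed. That none passed therefore says little about whether the groups differed. Peak number averaged 17.8 in Nr and 24 in AC over both stages (exact p = 0.07, adjusted p = 0.345). The mean of Nr O differed from that of AC Br+6 by -9.67 peaks (SE 5.14, exact p = 0.1, adjusted p = 0.345) and from that of Nr G by -5 peaks (SE 2.43, exact p = 0.1, adjusted p = 0.345). AC Br+6 exceeded AC MG by 2 peaks (SE 5.72, exact p = 0.8), a difference that was -3 without AC Br+6 replicate 3 and 5.5 without AC Br+6 replicate 1. Nr G differed from AC MG by -2.67 peaks (SE 3.48, exact p = 0.5). The difference between the stage effects, Nr less AC, was -7 peaks (exact p = 0.28, adjusted p = 0.535). Single libraries moved these values. Without AC Br+6 replicate 3 the genotype difference over both stages went from -6.17 to -3.67, that of Nr O and AC Br+6 to -4.67, and that between the stage effects to -2. Without Nr G replicate 1 the difference of Nr O and Nr G was -2.67 and that of Nr G and AC MG was -5. The latter was -0.167 without AC MG replicate 1.

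rRNA hosts took 44.4% ± 8.35 (SD, n = 3) of the AC MG peaks and 43.8% ± 15.9 (SD, n = 3) of the AC Br+6 peaks. They took 48.5% ± 7.38 (SD, n = 3) of the Nr G peaks but 67.5% ± 5.46 (SD, n = 3) of the Nr O peaks. The Nr O values, 73.3%, 66.7% and 62.5%, lay above all others, the highest of which was 55.6%. Over both stages the share was 58.0% in Nr and 44.1% in AC (exact p = 0.035, adjusted p = 0.345), the only 1 of the 21 tests with an unadjusted p under 0.05. The counts behind the share differed in the other hosts, since rRNA-host peaks numbered 9 to 11 in every library. The share with identical coordinates in the mRNA list was 5.16% ± 5.37 (SD, n = 3) for AC MG and 8.69% ± 2.96 (SD, n = 3) for AC Br+6. For the Nr groups it was 9.25% ± 8.29 (SD, n = 3) at the green stage and 2.08% ± 3.61 (SD, n = 3) late. None of its 7 tests passed.

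Wild-type ripening was followed by single circles next. A circle counted as gained or lost when no library on one side had a peak in it and at least 2 of the 3 on the opposite side did, a count with no test. From AC MG to AC Br+6, 4 of 32 circles were gained, against 11.4% of all circles and 1.33% of mRNA genes by the same rule. All circles here means the same circles plus those of the cluster, and a long circle can span several genes. Neither share is therefore a like background, here or in the comparisons below. The gained circles were Solyc12g043110, Solyc01g111020, Solyc06g007210 and the RRP46 homolog Solyc08g066700. In Solyc12g043110 and the RRP46 homolog, the peaks of AC Br+6 replicates 2 and 3 lay at different positions of the circle. With merged positions only Solyc01g111020 and Solyc06g007210 stayed gained. The circle antisense to thiamine thiazole synthase was lost, against 2.86% of all circles and 1.87% of mRNA genes. Each of these counts moved with single libraries. With a library left out the rule still needed 2 libraries with a peak, so a circle called in exactly 2 dropped out without either. Without AC Br+6 replicate 2 or 3 the gained count was 1, and without AC Br+6 replicate 1 it was 2. The lost count was 0 without AC MG replicate 1 or 2, 2 without AC Br+6 replicate 2, and 6 without AC Br+6 replicate 3.

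Between the stages of Nr fruit, 0 of 24 circles were gained (0% of all circles, 0.666% of mRNA genes). The polyubiquitin circle at 66537363 to 66538046 was the 1 lost, against 3.7% of all circles and 7.06% of mRNA genes. The lost count was 0 without Nr G replicate 1 or 2, 3 without Nr O replicate 2 and 2 without Nr O replicate 3.

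In green fruit, 0 of 33 circles were gained in Nr relative to AC (0% of all circles, 1.83% of mRNA genes). The circles of the translationally controlled tumor protein gene, Solyc03g083910 and ACO1 were lost, against 8.33% of all circles and 3.2% of mRNA genes. All 3 were called in AC MG replicate 1 and in only 1 other AC MG library, so without that replicate the rule itself removed them. The lost count was then 0 and the gained count 2. The lost count was 1 without AC MG replicate 3, and 6 without Nr G replicate 1.

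In late fruit, 0 of 26 circles were gained in Nr relative to AC (0% of all circles, 0.204% of mRNA genes). The 5 lost were those gained in wild-type ripening, together with the circle antisense to Solyc12g006975, against 17.2% of all circles and 4.18% of mRNA genes. Both comparisons use the AC Br+6 libraries, so the shared names are not separate observations. The lost count was 2 without AC Br+6 replicate 2 or 3 and 3 without AC Br+6 replicate 1. With merged positions, Solyc12g043110 and the RRP46 homolog were no longer among the lost.

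Call frequencies were also set against stage and against genotype over 6 libraries a side, for the 13 circles called in 3 to 9 libraries. By Fisher's exact test with Benjamini-Hochberg adjustment, 0 of 13 circles passed for stage (0% of all circles tested) and 0 of 13 for genotype (0%), and 0 had an unadjusted p under 0.05. The 7 circles called in 3 libraries could not pass, as 3 libraries against 0 give p = 0.182 by this Fisher's exact test. Its smallest p, 0.00216, needs 6 libraries against 0. The lowest p for stage, 0.0801, belonged to the circle antisense to thiamine thiazole synthase, called in 5 of 6 green and 1 of 6 late libraries. The lowest p for genotype, also 0.0801, belonged to the circle antisense to Solyc12g006975, called in 5 of 6 AC and 1 of 6 Nr libraries. A p above the threshold does not show that call frequencies were equal.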

How the data were processed

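The members and the gene lists were chosen with earlier results of these data known. HISAT2 2.0.4 and cutadapt 1.9.3 are listed as tools, with no role given, per the submitters' processing notes. Peak names begin with MACS, per the deposited files, and no source used here gives the caller's settings or its control. The deposited lists give each peak a fold enrichment (a ratio), a score of 10 times the −log10 of the p-value as the authors' caller writes it, and an FDR percent that the authors' files hold at 100 in every row and that was not used. The deposited lists give peaks per library. The lists hold no read totals, so sequencing depth is unknown, and whether strand was kept is not stated.

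From the lists, circRNA peaks were assigned to the cluster by position. A host counted as rRNA where its name holds rRNA. A peak counted as also in the mRNA list where chromosome, start and end were equal. Because the lists cut peaks to annotations, a match by peak identifier, score, fold enrichment and overlap was added after seeing the data (of 211 row pairs sharing an identifier, 208 matched and 3 lay at unrelated places). Library values were compared by exact permutation tests and circles by Fisher's exact test, each adjusted by Benjamini-Hochberg with a threshold of 0.05. Circles were named when called in at least 9 libraries, when gained or lost, when their host was a ripening gene, when they led their category, or when they were among the 5 most enriched circles of 1 or 2 libraries. Python 3.11.15, pandas 2.3.3, numpy 2.4.6, scipy 1.17.1 and matplotlib 3.10.9 were used, and the test scripts were tested on simulated data. Alternatives were stronger peaks (fold enrichment at or above the median, 23.4), an overlap of 1 base, a reciprocal overlap of 50%, rRNA hosts by position, distinct or merged positions, a log2 scale computed from the deposited lists, a replicate block, and each library left out.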

Additional observations from a re-analysis of the deposited data

Results flagged for a closer look

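A signal in a list that the comparisons did not use appeared for 4 circRNA peaks outside the cluster, which also stood in the lncRNA list of the same library. All 4 lay in the Solyc01g111020 circle on chromosome 1 and were listed as Solyc01g111080, in AC Br+6 replicates 1 and 3 and Nr G replicate 3. The whole lncRNA lists held 73 peaks.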

How the results depend on the processing

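None of the 292 permutation results under an alternative passed (lowest adjusted p 0.158). With stronger peaks only, the AC stage differences became -1 peak, -4.95 points in the mRNA list and 6.04 points of rRNA hosts. The mRNA-list differences of Nr stage (-7.17) and late genotype (-6.61) both became 0, and the late genotype difference in peak number went from -9.67 to -3.33. The green genotype difference in the mRNA list became -4.95 and the stage-by-genotype difference 4.95. AC ripening then gained 0 circles, and 1 was lost in green and 1 in late Nr against AC. With merged positions, AC ripening gained 2 circles and lost 2, ACO1 and the circle antisense to thiamine thiazole synthase, and late Nr lost 3. An overlap of 1 base and the same peak identifier each turned the mRNA-list differences of AC stage to -3.78 and of green genotype to -2.45, and widened those of Nr stage to -15.7 and of late genotype to -14.4. A reciprocal overlap of 50% gave -1.99 for AC stage and 1.38 for genotype. Other hosts per 100 mRNA peaks, an alternative chosen after seeing the data, gave 0.585 for Nr stage, 0.497 for stage over both genotypes and 0.175 for the stage-by-genotype difference. The cause of these changes was not tested. The 3 paired comparisons by peak identifier kept direction and call with an overlap of 1 base, a reciprocal overlap of 50% and each library left out. By identical coordinates the other-host share fell from 93.9% to 13.7%, and 0 of 120 rRNA-host and 0 of 183 cluster peaks were shared, so that definition says nothing about their direction.

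The mRNA calls showed no sign that replicate numbers pair the libraries. Same-numbered correlations ran from -0.0669 to 0.0722 over 1945 genes. In 4 of 12 comparisons, 3 replicates in each of 4 group pairs, a library correlated best with its own number. Correlations this close to zero do not show that the libraries were unpaired. With the replicate block, all 21 results kept direction (lowest adjusted p 0.328).

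Leaving out single libraries gave these ranges. Peak number ran from -3 to 5.5 for AC stage, from -6.67 to -2.67 for Nr stage, from -5 to -0.167 for green genotype, from -13.2 to -4.67 for late genotype. It ran from -4 to 0.25 for stage, from -7.92 to -3.67 for genotype and from -10.5 to -2 for the stage-by-genotype difference. The percent in the mRNA list ran from 0.954 to 6.31 for AC stage, from -11.8 to -3.8 for Nr stage, from 0.724 to 8.72 for green genotype, from -8.69 to -5.24 for late genotype. It ran from -4.13 to -0.133 for stage, from -2.94 to 1.06 for genotype and from -15.3 to -7.33 for the stage-by-genotype difference. The percent of rRNA hosts ran from -6.51 to 8.41 for AC stage, from 14.7 to 21.5 for Nr stage, from -0.166 to 8.42 for green genotype, from 14.7 to 29.6 for late genotype. It ran from 6.23 to 13.7 for stage, from 9.44 to 16.9 for genotype and from 10.6 to 25.5 for the stage-by-genotype difference. Circles gained numbered 1 to 5 for AC stage, 0 to 0 for Nr stage, 0 to 2 for green genotype, 0 to 0 for late genotype. Circles lost numbered 0 to 6 for AC stage, 0 to 3 for Nr stage, 0 to 6 for green genotype, 2 to 6 for late genotype.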
